A study of Saccharomyces cerevisiae with 12 samples.

Results

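The Ty retrotransposons of Saccharomyces cerevisiae and the long terminal repeats they leave behind were taken as every nuclear feature that the RefSeq R64 annotation calls a mobile genetic element or a long terminal repeat, whatever its values. These are 434 features. They comprise 50 full elements (31 Ty1, 13 Ty2, 2 Ty3, 3 Ty4 and 1 Ty5), the 97 repeats at the ends of those elements, 1 repeat nested in an element, and 286 solo repeats that stand without an element (203 Ty1, 10 Ty2, 38 Ty3, 29 Ty4 and 6 Ty5). With 300 bp on each side they hold 13387 of the 354295 CpG sites of the nuclear genome, and 13014 of these had at least 5 calls per strand in all 12 libraries and were used.

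Ty elements move through an RNA copy that the element's own reverse transcriptase turns back into DNA. A full element has a direct repeat at each end, transcription starts in the 5′ repeat, and the internal part encodes a Gag-like protein and a polyprotein with protease, integrase and reverse transcriptase. Recombination between both repeats of an element removes the internal part and leaves a solo repeat, which is why solo repeats outnumber elements. Ty1, Ty2, Ty3 and Ty4 insert upstream of genes transcribed by RNA polymerase III, mostly tRNA genes, whereas Ty5 inserts into silent chromatin near telomeres and mating-type loci.

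In the study, Abf1 (a general regulatory factor that binds a sequence motif with a spacer and keeps promoters free of nucleosomes) was removed from the nucleus of growing yeast, and the accessibility of DNA was then read by ODM-seq, which measures occupancy through DNA methylation. Chromatin was incubated with M.SssI, an enzyme that methylates CpG sites not covered by nucleosomes or other proteins, and methylated sites were called on Nanopore reads, so that a high methylation level stands for accessible DNA. All cells were of one strain, ABF1-aa-V5 clone A9 in the BY4741 background, whose own tagged Abf1 leaves the nucleus with rapamycin, and all received 8 µg/mL of it for 75 min. They carried the plasmid pRS315 with wild-type Abf1 (WT Abf1), without insert (no Abf1), or with an Abf1 in which the residues of the essential motif (EM) of a disordered region were put in another order (the libraries labelled EM shuffle), with 2 biological replicates per construct. The paper describes its designed variants as lacking the other disordered region of Abf1 and as carrying an added nuclear localization signal. They keep a shortened form of the region with the motif, and the EM shuffle variant did not support growth as the only Abf1. The WT Abf1 plasmid holds the whole wild-type gene, so comparisons with it cover these differences too. Each replicate gave aliquots of 3 h and 4 h of M.SssI. The WT Abf1 and no Abf1 libraries carry 1 batch date and the EM shuffle libraries another, so that batch and construct cannot be told apart in any comparison with EM shuffle. Replicates are described as independent transformants, and exact p-values measure the spread between these preparations. The p-values of single windows rest mainly on a dispersion shared across windows (42.4 prior degrees of freedom).

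Nuclear depth ran from 13253872 to 37756743 calls per library, with a median of 32 to 94 calls per CpG site. Coverage of the ABF1 gene over that of the surrounding 5000 to 20000 bp was 1.85 ± 0.0243 in WT Abf1, 0.916 ± 0.0705 in no Abf1 and 0.990 ± 0.0150 in EM shuffle (SD, n = 2), so that reads over the gene in excess of its surroundings were seen in WT Abf1 and not in EM shuffle. Chromosome XI lay at 2.03 and 1.96 times the nuclear median in the aliquots of EM shuffle replicate 2 and at 1.15 in both of replicate 1, against 0.984 to 1.01 in the other 8 libraries. ABF1 lies on this chromosome. Over the nuclear median, the gene was at 2.04 and 1.85 in EM shuffle replicate 2 and at 1.04 and 1.29 in replicate 1 (3 h and 4 h).

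The sequences given here are short stretches inside or beside elements that match the Abf1 consensus motif, 13 bases with a spacer of 5, or miss it by 1 base. They are shown because the accessibility beside them was compared between copies. Both strands were searched. Each is given 5′ to 3′ from RefSeq R64 as 29 bases, with the 13 matching bases in capitals. The first one stands in the Ty2 elements YFLWTy2-1 (chrVI:138515-138543, minus strand) and YGRWTy2-2 (chrVII:812049-812077, minus strand), inside overlapping reading frames of the coding region. The second is the same place in YDRCTy2-1 (chrIV:519017-519045, plus strand). It is 1 of the 10 Ty2 elements that miss the consensus by T12C (position counted from 1 at the 5′ end of the 13 bases, the base of these 10 copies first).
YFLWTy2-1 and YGRWTy2-2: gtgaacacGTCATCATAGACGgttgttgg
YDRCTy2-1, no match: gtgaacacGTCATCATAGATGgttgttgg
The internal matches of the Ty3 elements YGRWTy3-1 (chrVII:709351-709379, minus strand) and YILWTy3-1 (chrIX:207454-207482, minus strand), of the Ty4 element YJLWTy4-1 (chrX:199212-199240, plus strand) and of the solo Ty3 repeat chrIV:651420-651503 (chrIV:651444-651472, minus strand) are shown because they behaved differently from each other. All of them end in the CpG that the consensus requires.
YGRWTy3-1 and YILWTy3-1: atttcaatATCATGTTTTACGgggatgtt
YJLWTy4-1: agacagtaATCGCAGTACACGattttttg
Ty3 solo repeat: gacaatacGTCATCCTAAACGttcataaa
Beside members, the matches with the largest changes stood in the 5′ flanks of the Ty2 element YORWTy2-2 (chrXV:970103-970131, plus strand, and an overlapping one on the minus strand) and of the Ty1 element YOLWTy1-1 (chrXV:117554-117582, plus strand).
YORWTy2-2 flank: ttatggcgATCGTTTATCACGacaagccc
YOLWTy1-1 flank: cccggtacGTCACTGAGTACGaaacggat

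Full elements were less accessible than the rest of the genome, and the DNA beside them was more accessible. The level of a class is the mean over its CpG sites of methylated over all calls, given as the mean ± SD of 2 biological replicates. In WT Abf1 the 7531 sites of full elements lay at 25.1% ± 2.06, the 6964 sites of their internal part at 24.6% ± 2.06, the 560 sites of their repeats at 30.6% ± 2.08 and the 1612 sites of solo repeats at 26.4% ± 2.15, against 28.0% ± 1.87 over the 340427 sites outside members and flanks. Flanks of full elements reached 36.4% ± 1.96 and flanks of solo repeats 35.4% ± 2.35. Within each of the 6 preparations, full elements lay 2.91 ± 0.165 percentage points below the rest (mean ± SD over 6), their internal part 3.30 ± 0.201 below and solo repeats 1.63 ± 0.163 below. Their repeats lay 1.99 ± 0.537 points above, flanks of full elements 8.71 ± 0.762 above and flanks of solo repeats 7.42 ± 0.433 above. Each of these 6 differences had its sign in 6 of 6 preparations (two-sided exact permutation of signs, p = 0.0312 and adjusted p = 0.0341, with 0.0312 the least that 6 preparations can give). Repeats of full elements lost the call when all calls were pooled instead of averaged over sites (0.630 points above).

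**Figure D1:**
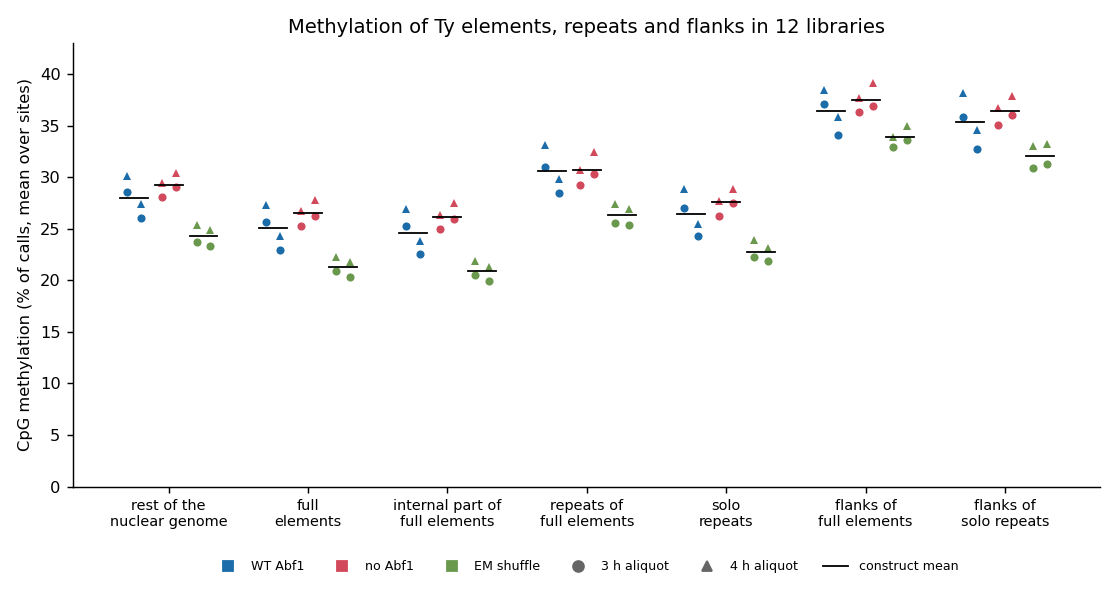
CpG methylation (percent of calls, mean over the sites of a class) of each class of Ty features in each of the 12 libraries, with circles for 3 h and triangles for 4 h aliquots and a line at the mean of a construct. Flanks stand above the rest of the nuclear genome and full elements below it in every construct, and the mean of the libraries labelled EM shuffle is lowest in all classes.

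Among families, Ty5 stood lowest in full elements, in solo repeats and in flanks, and Ty3 in the repeats of full elements. Full elements of Ty1 lay at 25.6%, of Ty2 at 24.0%, of Ty3 at 24.1%, of Ty4 at 26.9% and of Ty5 at 19.3% in WT Abf1, the last 8.82 points below the rest of the genome over the 6 preparations. Solo repeats of Ty1 lay at 27.2%, of Ty2 at 25.2%, of Ty3 at 23.4%, of Ty4 at 28.3% and of Ty5 at 21.7%, and only those of Ty4 were not separated from the rest in the exact sign-flip test (0.0167 points below, p = 0.938, n = 6). Ty5 was also the exception among flanks: those of its element lay 4.35 points below the rest and those of its solo repeats 3.75 points below, while the flanks of the other families lay between 4.69 and 10.5 points above. Repeats of Ty3 elements lay at 20.6% in WT Abf1, 6.37 points below the rest, and repeats of Ty2 elements lay 0.663 points above it (p = 0.0625 by the exact sign-flip test, n = 6). CpG sites are unevenly spread. A full Ty1 element holds a median of 161 CpG sites (150 to 168), a Ty2 element 154, a Ty4 element 114 and the Ty5 element 95. Solo repeats of Ty3 have a CpG content of 1.11 times what their base composition predicts.

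Single elements differed little within a family. In WT Abf1 the 31 Ty1 elements ranged from 23.7% to 27.6%, the 12 measured Ty2 elements from 21.4% to 25.4%, the 2 Ty3 elements from 23.8% to 24.4% and the 3 Ty4 elements from 25.7% to 27.9%. The lowest were YCLWTy5-1 (19.3%), YORWTy2-2 (21.4%) and YLRWTy2-1 (23.0%), and the highest were YJLWTy4-1 (27.9%), YLRWTy1-3 (27.6%) and YBLWTy1-1 (27.4%). Solo repeats spread far more widely, but each level rests on fewer CpG sites, a median of 5 in solo Ty1 repeats beside 161 in Ty1 elements. The 5′ repeats of Ty1 elements also ran widely, from 26.1% (YGRCTy1-2) to 59.1% (YLRWTy1-3). The part of site number in the spread was not tested. Among the 219 with at least 4 CpG sites, those of Ty1 ran from 7.63% to 53.9% (median 27.8%, n = 148) and those of Ty3 from 7.13% to 39.5% (median 23.6%, n = 32). The lowest were a Ty3 repeat at chrVIII:85388-85538 (7.13%) and Ty1 repeats at chrIV:945351-945673 (7.63%) and chrXVI:571845-572173 (11.7%), and the highest were Ty1 repeats at chrII:327069-327394 (53.9%), chrV:62142-62474 (52.3%) and chrV:99490-99664 (52.1%).

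Accessibility along Ty1 and Ty2 elements was highest in one bin, the one from 800 bp. In bins of 100 bp from the 5′ end, the bin from 800 bp reached 66.3% ± 1.5 in WT Abf1, 64.3% ± 0.7 in no Abf1 and 59.1% ± 1.5 in EM shuffle over Ty1 elements, and the bin from 1600 bp fell to 13.9%, 15.1% and 11.5%. In single Ty1 copies the level of the bin from 800 bp ran from 48.4% to 86.5% in WT Abf1 (median 65.1%, n = 30 copies). Ty2 elements had a peak in the same bin (58.6% in WT Abf1, 61.2% in no Abf1 and 51.6% in EM shuffle, 40.4% to 80.1% over 11 copies in WT Abf1), which was carried by a single CpG site in each copy, 869 bp from the 5′ end in 10 of them. The next bin, from 900 bp, was at 14.5% in WT Abf1 in Ty2 and at 52.7% in Ty1. It holds the site at 931 bp in Ty2 and sites at 901 to 924 bp in Ty1, so that the widths of both peaks cannot be compared. Further Ty2 peaks stood in the bins from 1300, 1500 and 1700 bp, at 41.9%, 45.0% and 35.8% in WT Abf1. In Ty1 the bins nearer to the 5′ end than the peak lay between 31.7% (bin from 200 bp) and 40.6% (bin from 300 bp) in WT Abf1.

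**Figure D2:**
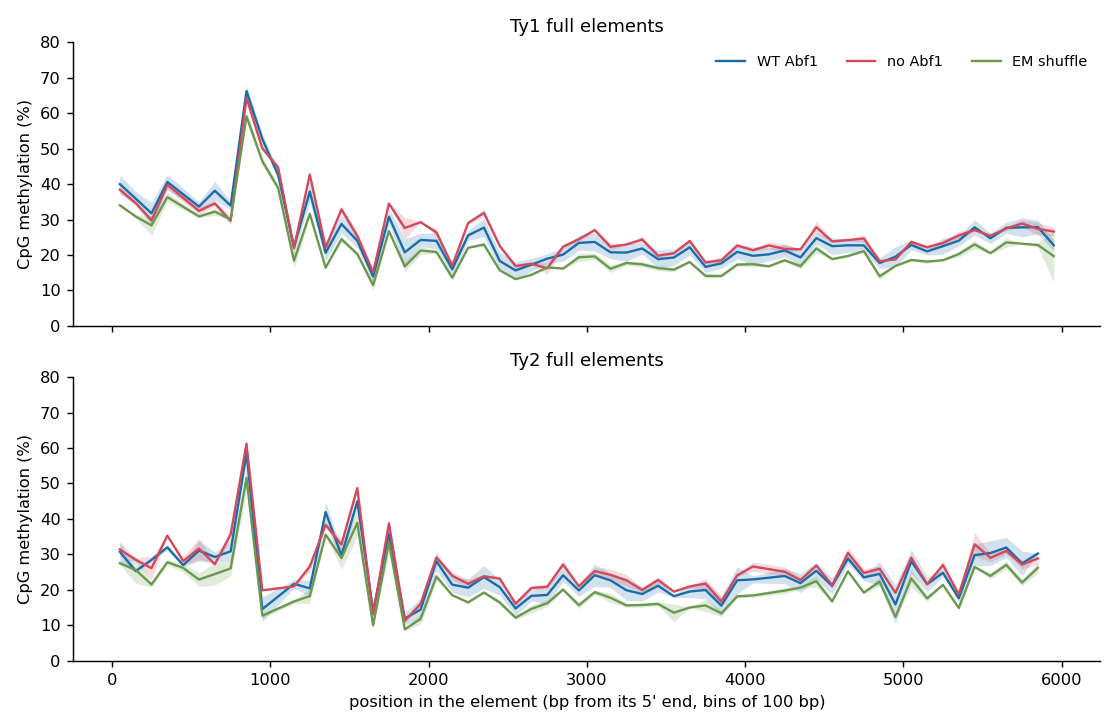
Mean CpG methylation (percent) of full Ty1 and Ty2 elements in bins of 100 bp against the distance from the 5′ end of the element (bp), with a line per construct and a band of ± SD over 2 biological replicates. The bin from 800 bp stands highest in both families, at 66.3% in Ty1 and 58.6% in Ty2 in WT Abf1.

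The repeat at which transcription starts was more accessible than its partner at the other end in Ty1. The pairs of classes in this paragraph were chosen after the levels had been seen. The 5′ repeats of Ty1 elements lay at 34.6% and the 3′ repeats at 26.8% over the 6 preparations, a difference of 7.74 ± 0.797 points with the same sign in 6 of 6 (exact sign-flip permutation test, p = 0.0312, adjusted p = 0.0347). Of 28 Ty1 pairs with both repeats measured, the 5′ repeat was higher in 25 in WT Abf1, in 27 in no Abf1 and in 26 in EM shuffle, with medians of 38.1% and 28.0% in WT Abf1. Both repeats of an element are identical in 12 of the 29 annotated Ty1 pairs, so that a read can be told apart there only by the DNA beside the repeat. In Ty2 the corresponding levels were 28.4% and 27.4% (difference 1.05 ± 1.70 points, same sign in 5 of 6, exact p = 0.125), with the 5′ repeat higher in 6 of 12 pairs in WT Abf1. Repeats still attached to a Ty1 element lay 4.25 points above solo Ty1 repeats, and those attached to a Ty3 element lay 2.03 points below solo Ty3 repeats, each in 6 of 6 preparations. The excess in Ty1 lay in the 5′ repeats, since the 3′ repeats (26.8%) were close to solo Ty1 repeats (26.4%).

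Nearness to tRNA genes, the insertion targets, went with high flank levels. Of the 336 full elements and solo repeats, 178 lay within 300 bp of a tRNA gene, among them 34 of 38 solo Ty3 repeats (median distance 17 bp), 97 of 203 solo Ty1 repeats, 19 of 31 Ty1 elements and 0 of the 7 Ty5 members. The 181 flanks that hold part of a tRNA gene lay at 40.8% and the 491 without at 30.8%, a difference of 9.91 ± 1.18 points in 6 of 6 preparations (exact sign-flip permutation test, p = 0.0312, adjusted p = 0.0347). The tRNA genes themselves, which are occupied by their transcription factors but hold few nucleosomes, did not stand higher beside members: the 158 tRNA genes within 300 bp of a member lay at 38.2% and the other tRNA genes at 39.5%, 1.29 ± 0.306 points lower in 6 of 6 preparations.

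The levels of the 6 classes over all families differed between no Abf1 and WT Abf1 by less than the SD of WT Abf1, and EM shuffle lay lower, as it did genome-wide. Full elements lay at 25.1% ± 2.06 in WT Abf1, 26.5% ± 0.737 in no Abf1 and 21.3% ± 0.391 in EM shuffle, and solo repeats at 26.4% ± 2.15, 27.6% ± 0.83 and 22.8% ± 0.418 (n = 2 each). The rest of the genome moved in the same order, at 28.0% ± 1.87, 29.3% ± 0.665 and 24.3% ± 0.337. Over these 6 classes, exact permutation tests of no Abf1 against WT Abf1 gave p between 0.667 and 1, and those of EM shuffle against WT Abf1 gave 0.333 for each, the smallest p that 2 against 2 allow. Within families, no Abf1 lay above WT Abf1 without overlap of the preparations in Ty3 elements (26.6% ± 0.690 against 24.1% ± 1.72), in their internal part (27.1% ± 0.626 against 24.5% ± 1.70) and in flanks of the Ty5 element (26.2% ± 0.633 against 22.0% ± 1.09), each with an exact permutation p of 0.333 (n = 2). On the authors' scale, where levels are divided by a factor per construct, EM shuffle lay 2.48 points above WT Abf1 in flanks of full elements and 1.51 above in flanks of solo repeats, where the undivided levels lay 2.53 and 3.24 below. Between the 3 h and 4 h aliquots of a preparation the level rose by 1.45 points in full elements, 1.47 in solo repeats and 1.97 in flanks of solo repeats, in 6 of 6 preparations (exact sign-flip permutation test, p = 0.0312, adjusted p = 0.0388).

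Window by window, removal of Abf1 changed few Ty features. Each body, repeat and flank with at least 2 CpG sites was a window of a table of 36584 windows that also holds 5759 promoters and 29884 tiles of 300 bp. The calls of all 6 preparations entered a quasi-binomial model with an offset for the genome average of each construct. A window was called at a Benjamini-Hochberg adjusted p under 0.05. The 941 member windows were those of 49 of 50 full elements, 94 of 97 element repeats, the nested repeat, 263 of 286 solo repeats and 534 flanks. In no Abf1 against WT Abf1, 8 member windows rose and 11 fell. These 19 of 941 make 2.02%, where 3.08% of all windows and 7.59% of promoters were called. In 16 of the 19 no library of one construct reached the range of the other after the offset (1.7% of member windows, beside 2.73% of all windows). The median change was 0.02 on the log2 odds scale over the member windows and 0.03 over all windows. The count was 9 with limma and 24 with a dispersion that follows the number of calls (dispersion trend), and 92 windows had an unadjusted p under 0.05. Without WT Abf1 replicate 1, WT Abf1 replicate 2, no Abf1 replicate 1 or no Abf1 replicate 2 it was 11, 11, 12 and 12.

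The largest change stood in the 93 bp between a solo Ty4 repeat (chrXIII:808537-808906) and a solo Ty1 repeat (chrXIII:809000-809233), the 5′ flank of both, between the tRNA gene CDC65 and SCS7, which encodes a fatty acid hydroxylase. Its 5 CpG sites lay at 54.7%, 35.7%, 41.7% and 30.7% in WT Abf1 (replicate 1 at 3 h and 4 h, then replicate 2 at 3 h and 4 h, an order kept for all such series) and at 10.4%, 14.3%, 7.68% and 12.7% in no Abf1. The EM shuffle libraries were at 19.4%, 14.9%, 21.3% and 24.8%. All WT Abf1 libraries stood above all others, although they spread widely, and the EM shuffle libraries stood above those of no Abf1. In both WT Abf1 replicates the 4 h aliquot lay below the 3 h aliquot at each of the 5 sites. Full elements, solo repeats and flanks of solo repeats rose between these aliquots, and the reason for the opposite direction here was not tested. The log2 odds ratio was −2.49 ± 0.220 (SE) for no Abf1 against WT Abf1 (adjusted p = 1.54e-11), −1.12 ± 0.223 for EM shuffle against WT Abf1 (adjusted p = 0.00332) and 1.37 ± 0.244 for EM shuffle against no Abf1 (adjusted p = 0.000146). The call of EM shuffle against WT Abf1 was lost without WT Abf1 replicate 1 (−0.94), without EM shuffle replicate 1 (−0.83), with 4 h aliquots only and at a coverage minimum of 20. That of EM shuffle against no Abf1 was lost without EM shuffle replicate 2 (1.06) and in the last 2 settings. This stretch holds no match to the consensus, though 2 places in it or within 100 bp of it miss the consensus by 1 base. With the 100 bp on each side it is 293 bp long, and 53.5% of nuclear stretches of that length hold a place as close to the consensus or closer. It counts as 2 windows in each of the 3 counts.

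A solo Ty1 repeat at chrV:99490-99664, one of the 3 most accessible, also lost accessibility. Its 5 CpG sites lay at 49.9%, 56%, 46% and 55.4% in WT Abf1 and at 32.2%, 34.2%, 36% and 33.2% in no Abf1. The EM shuffle libraries were at 41.7%, 45.9%, 37.6% and 43.8%. The EM shuffle libraries lay between the other constructs without overlap. The log2 odds ratio was −1.13 ± 0.164 for no Abf1 against WT Abf1 (adjusted p = 4.11e-06) and 0.91 ± 0.178 for EM shuffle against no Abf1 (adjusted p = 0.0006). The second call was lost without EM shuffle replicate 1 (0.83) and with 3 h aliquots only.

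Both further losses named by the rule were in flanks that hold a match to the Abf1 consensus. The 300 bp before YOLWTy1-1 (chrXV:117403-117702) lay at 43.6%, 51.8%, 44.3% and 47.2% in WT Abf1, at 30.5%, 32.6%, 33.5% and 36.2% in no Abf1 and at 35.5%, 35.4%, 31.2% and 36.2% in EM shuffle (no Abf1 against WT Abf1 −0.90 ± 0.132, adjusted p = 4.75e-06). The 5′ flank of the solo Ty4 repeat chrX:421946-422295 lay at 51.4%, 50.5%, 44.4% and 47.7% in WT Abf1, at 39.3%, 38.1%, 37.3% and 39% in no Abf1 and at 38%, 33.3%, 39.7% and 43.3% in EM shuffle (−0.67 ± 0.141, adjusted p = 0.00175). In both, WT Abf1 stood above all other libraries in percent, and the EM shuffle libraries overlapped those of no Abf1 before the offset. Close to the matches in these flanks (CpG sites 10 to 75 bp from the centre), EM shuffle was called above no Abf1 after the offset. The log2 odds ratios there were 0.83 for YOLWTy1-1 and 0.99 for the Ty4 repeat.

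Other windows gained accessibility in no Abf1. The largest gain was in a solo Ty1 repeat. This repeat, at chrXIII:379072-379198 with 5 CpG sites, lay at 16.1%, 8.58%, 12.5% and 15.9% in WT Abf1 and at 28.3%, 27.7%, 30.8% and 31.2% in no Abf1. The EM shuffle libraries were at 12.5%, 22%, 8.14% and 12.7%. Its log2 odds ratio was 1.34 ± 0.224 for no Abf1 against WT Abf1 (adjusted p = 5.83e-05) and −0.91 ± 0.226 for EM shuffle against no Abf1 (adjusted p = 0.0108). The second call was lost without no Abf1 replicate 2 (−0.84) and without EM shuffle replicate 2 (−0.63). The 5′ flank of the Ty5 element YCLWTy5-1, near the left end of chromosome III (chrIII:879-1178), lay at 21.7%, 24.1%, 20.9% and 18.4% in WT Abf1, at 30.2%, 32.7%, 29.3% and 30% in no Abf1 and at 22.3%, 23.4%, 19.1% and 23.1% in EM shuffle (0.62 ± 0.108, adjusted p = 0.000112). Coverage of this flank was 1.53 to 2.67 times the nuclear median, and its part in the result was not tested. Of the other 4 gains with libraries that did not overlap, the largest 3 were the 5′ repeat of the Ty2 element YGRWTy2-2 (chrVII:811447-811778, 0.65 ± 0.189, adjusted p = 0.0419), the 3′ flank of a solo Ty1 repeat at chrXIII:481571-481808 (0.51 ± 0.143, adjusted p = 0.0306) and a solo Ty1 repeat at chrVIII:389613-389845 (0.50 ± 0.141, adjusted p = 0.0335). These 3 calls were lost under several alternatives, limma among them. The fourth, outside those named by the rule, was the 3′ flank of a solo Ty1 repeat at chrIII:295003-295330 (34.4% in WT Abf1 and 42.8% in no Abf1, 0.43 ± 0.105, adjusted p = 0.00949, and 0.356 with limma).

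**Figure D3:**
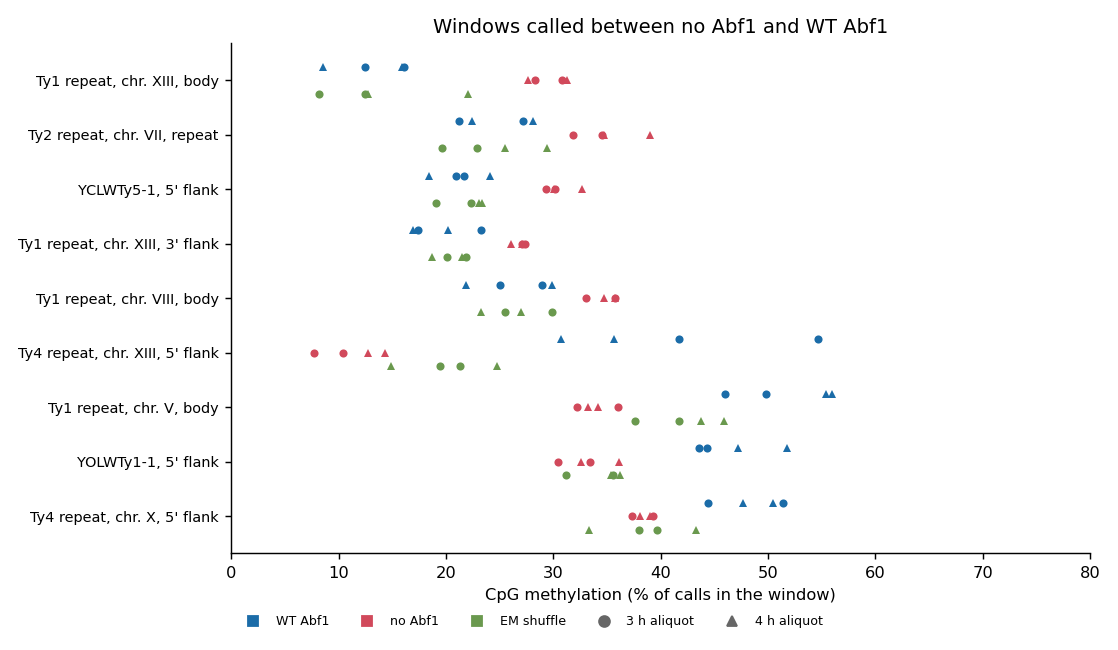
CpG methylation (percent of calls in the window) of the member windows named for no Abf1 against WT Abf1 in each of the 12 libraries, with circles for 3 h and triangles for 4 h aliquots. The 3 rows of a window hold, from top to bottom, WT Abf1, no Abf1 and EM shuffle. In the upper 5 windows no Abf1 lies right of WT Abf1, in the lower 4 it lies left, and in the chromosome XIII flank WT Abf1 spreads from 30.7% to 54.7%.

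EM shuffle differed from WT Abf1 in 6 of the 941 windows, of which 4 rose and 2 fell. This is 0.638% where 0.421% of all windows were called. There 98 windows had an unadjusted p under 0.05, and limma called 2 and the dispersion trend 6. Without WT Abf1 replicate 1 the count was 2 and without EM shuffle replicate 1 it was 3. The 2 lower ones are the chromosome XIII stretch. The 3′ flank of a solo Ty1 repeat at chrXII:796899-797088 rose from 47%, 48%, 44.4% and 40.8% in WT Abf1 to 48.8%, 51.9%, 47.1% and 54.3% in EM shuffle (0.61 ± 0.107, adjusted p = 0.000408). These libraries overlapped in percent and not after the offset. The 5′ flank of YDRCTy2-1 rose from 39.1%, 44.9%, 34.4% and 39.6% to 43.8%, 41.1%, 48.3% and 43.8% (0.55 ± 0.131, adjusted p = 0.0343). This call was lost in 9 settings, among them limma (0.53), 4 h aliquots only (0.30) and the removal of either replicate of WT Abf1 (0.59 and 0.46) or of EM shuffle (0.64 and 0.45).

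EM shuffle differed from no Abf1 in 29 of the 941 windows, of which 25 rose and 4 fell. This is 3.08% where 3.02% of all windows were called. The unadjusted p was under 0.05 in 122, limma called 19 and the dispersion trend 36. Without EM shuffle replicate 2 the count was 8, without no Abf1 replicate 2 it was 16, without no Abf1 replicate 1 it was 17, without EM shuffle replicate 1 it was 18, and without either WT Abf1 replicate it was 47. Besides the windows already given, the largest gains were in a repeat of a full Ty1 element at chrIV:1206704-1207037 (35.0% in no Abf1 and 41.9% in EM shuffle, 0.78 ± 0.226, adjusted p = 0.0435) and the 3′ flank of the solo Ty1 repeat chrIV:1151039-1151368 (30.1% and 36.1%, 0.76 ± 0.171, adjusted p = 0.00371). The first call was lost in 9 settings, among them the removal of any replicate of no Abf1 or EM shuffle (0.56 to 1.07). The second was lost without no Abf1 replicate 1 (0.70), without EM shuffle replicate 2 (0.61), with 3 h aliquots only and with flanks of 150 bp, where the value was 0.0850. The 4 losses comprised the chromosome XIII repeat and 2 others without overlap, the 3′ flank of a Ty1 repeat at chrXI:517453-517784 (69.9% and 51.1%, −0.79 ± 0.120, adjusted p = 8.43e-06), which lies on the chromosome of raised coverage in EM shuffle, and the 5′ flank of one at chrXV:980259-980590 (52.2% and 38.9%, −0.42 ± 0.122, adjusted p = 0.0468, lost in 10 settings). In the remaining one, the 3′ flank of the solo Ty2 repeat chrI:189426-189757, the libraries overlapped (45.4% and 29.5%, −0.64 ± 0.134, adjusted p = 0.00151).

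Matches to the Abf1 consensus were rare in Ty1 and Ty4 repeats and frequent in those of Ty3. The nuclear genome holds 1785 matches, 57 of them in members or within 300 bp. Of the 42 Ty3 repeats, 28 held a match (66.7%), against 2 of 267 Ty1 repeats, 1 of 32 Ty2 repeats, 0 of 35 Ty4 repeats and 0 of 8 Ty5 repeats, and against 2.53% of the 300 bp tiles and 11.8% of promoters of 200 bp. The accessibility beside a match was taken from CpG sites 10 to 75 bp from its centre, in a fit of 39146 windows added after the first results had been seen. Elsewhere in the genome 493 of 1569 tested matches fell and 35 rose in no Abf1, which is 33.7% called, with a median log2 odds ratio of −0.23. Of the 52 tested matches in or near members, 10 fell and 0 rose (19.2%, unadjusted p under 0.05 in 16, limma 12, dispersion trend 12). In EM shuffle against WT Abf1, 12 of 1569 matches elsewhere (0.765%) and 0 of 52 at members were called by the quasi-binomial fit, with an unadjusted p under 0.05 in 8 of the 52 and 3 calls each by limma and with the dispersion trend. In EM shuffle against no Abf1, 478 matches elsewhere were called (30.5%), and 11 of 52 at members were higher in EM shuffle (21.2%).

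Inside Ty2, the copies with the match stood above those without it in WT Abf1 and EM shuffle but not in no Abf1. The flanks of the match in YFLWTy2-1, 610 bp from the 5′ end of the element, lay at 50.7%, 62.1%, 47.3% and 46.0% in WT Abf1 and at 26.7%, 25.1%, 21.6% and 25.2% in no Abf1. The EM shuffle libraries were at 43.3%, 35.1%, 51.3% and 48.8%. The log2 odds ratio of no Abf1 against WT Abf1 was −1.78 ± 0.188 (adjusted p = 1.87e-09), and that of EM shuffle against WT Abf1 was −0.13 ± 0.202 (adjusted p = 0.999). In YGRWTy2-2 the same place lay at 47.5%, 51.9%, 48.7% and 44.0% in WT Abf1, at 32.8%, 26.6%, 32.1% and 36.5% in no Abf1 and at 39.4%, 39.4%, 39.8% and 44.9% in EM shuffle (−1.07 ± 0.173, adjusted p = 1.61e-05, and −0.12 ± 0.190, adjusted p = 0.999). In both copies no library of no Abf1 overlapped one of WT Abf1. The third copy with the match, YCLWTy2-1, had no CpG site with enough calls.

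The 10 Ty2 copies without the match, which carry the T of T12C, did not follow. Their log2 odds ratios of no Abf1 against WT Abf1 ran from −0.11 to 0.37, and the quasi-binomial fit called 0 of them, as did limma and the dispersion trend, with an unadjusted p under 0.05 in 0. Summed over copies, the flanks with the match lay at 45.1% to 57.9% in the WT Abf1 libraries and 25.8% to 31.0% in no Abf1, while the flanks of the 10 others lay at 25.5% to 29.0% and 28.4% to 30.0%. The difference between both kinds of copy was 1.44 ± 0.186 on the log2 odds scale in WT Abf1, −0.08 ± 0.0170 in no Abf1 and 1.44 ± 0.130 in EM shuffle (SD, n = 2). It was at least 1.15 in each WT Abf1 library, at most 0.0883 in each no Abf1 library and at least 1.09 in each EM shuffle library. The exact permutation p of no Abf1 against WT Abf1 was 0.333, the smallest that 2 against 2 allow. Copies with the match are identical to each other over the 151 bases around it, and the 10 others differ from them there at 1 to 4 bases. In YDRCTy2-1, YGRCTy2-1 and YLRWTy2-1 the base of T12C is the only difference over these 151 bases. Within 300 bp to each side, these 3 copies differ from YFLWTy2-1 and YGRWTy2-2 at 14, 10 and 9 bases. Over all 10 copies without the match the range there is 8 to 17. The part of these further differences in the result was not tested. This comparison was set up after the values of the copies with the match had been seen.

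**Figure D4:**
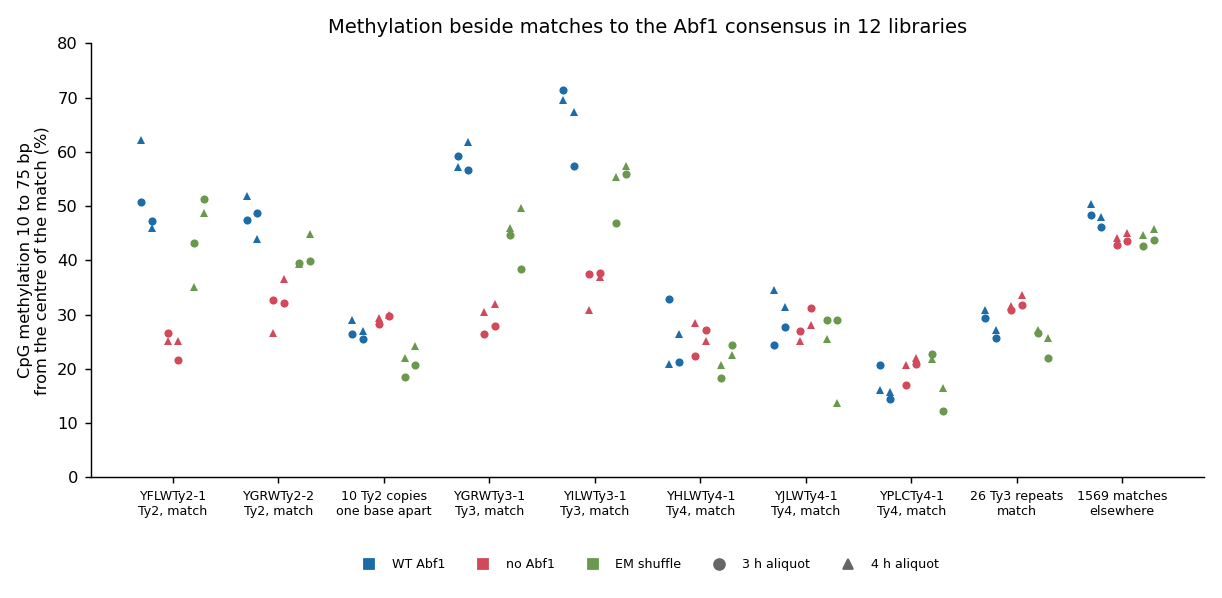
CpG methylation (percent of calls) 10 to 75 bp from the centre of matches to the Abf1 consensus in each of the 12 libraries, with circles for 3 h and triangles for 4 h aliquots. In the Ty2 and Ty3 elements with a match no Abf1 lies below WT Abf1 and EM shuffle mostly between, whereas the 10 Ty2 copies with one base changed in that place, the 3 Ty4 elements and the 26 Ty3 repeats show no such gap.

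Inside both Ty3 elements the flanks of the match lost accessibility too. In YGRWTy3-1 they lay at 59.3%, 57.2%, 56.7% and 61.8% in WT Abf1, at 26.3%, 30.5%, 28% and 31.9% in no Abf1 and at 44.7%, 46%, 38.3% and 49.6% in EM shuffle, with a log2 odds ratio of −1.90 ± 0.176 for no Abf1 against WT Abf1 (adjusted p = 6.65e-11). In YILWTy3-1 they lay at 71.3%, 69.6%, 57.3% and 67.3%, at 37.6%, 30.9%, 37.6% and 36.9% and at 46.9%, 55.3%, 56% and 57.4% (−1.92 ± 0.203, adjusted p = 1.93e-09). Every EM shuffle library of both elements lay above those of no Abf1, and in YGRWTy3-1 below those of WT Abf1, but only the difference from no Abf1 was called. The log2 odds ratio of EM shuffle against WT Abf1 was −0.50 ± 0.195 (adjusted p = 0.548) and −0.46 ± 0.233 (adjusted p = 0.823), and against no Abf1 1.41 ± 0.188 (adjusted p = 4.07e-07) and 1.46 ± 0.212 (adjusted p = 2.52e-06). These matches stand in the coding region, 2164 and 2242 bp from the 5′ end.

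The match inside Ty4 and those in Ty3 repeats were not followed by a loss. The 3 Ty4 elements YHLWTy4-1, YJLWTy4-1 and YPLCTy4-1 had log2 odds ratios of −0.06 ± 0.184, −0.17 ± 0.240 and 0.22 ± 0.263 for no Abf1 against WT Abf1, none called, on mean levels of 25.3%, 28.8% and 16.8% in WT Abf1. In the 26 tested Ty3 repeats the log2 odds ratios ran from −0.42 to 0.72 with a median of 0.18, and 0 were called by the quasi-binomial fit (unadjusted p under 0.05 in 4, limma 1, dispersion trend 1). Their flanks were at 28.2% ± 2.63 in WT Abf1, 31.9% ± 0.96 in no Abf1 and 25.6% ± 1.81 in EM shuffle, against 48.0% ± 1.61, 43.9% ± 0.50 and 44.4% ± 0.97 beside matches elsewhere. The match stands 38 to 40 bp from the 5′ end of the repeat, and its commonest form recurs in 12 repeats. The CpG that ends the match, which lies within the matched bases, went in no Abf1 at matches elsewhere from 32.2% ± 0.494 to 40.4% ± 0.306 (n = 2, exact permutation p = 0.333, the smallest possible), and was at 50.5% ± 2.55 and 52.9% ± 0.696 in Ty3 repeats. At the internal matches this CpG rose in Ty3 elements, from 35.6% ± 4.05 to 49.6% ± 0.132 (2 sites). In Ty2 elements it went the other way, from 28.2% ± 4.16 to 17.9% ± 0.451 (2 sites). In Ty4 elements it was at 24.2% ± 3.33 and 24.9% ± 1.88 (3 sites).

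In the flanks of members 6 of 17 tested matches fell in no Abf1 (35.3%, beside 31.4% of matches elsewhere), 2 of them overlapping. The match before YORWTy2-2 was the largest, at 56.2%, 59.8%, 50.3% and 54.5% in WT Abf1 and at 11.1%, 18.3%, 16.2% and 29.1% in no Abf1. The EM shuffle libraries were at 25.6%, 39.1%, 37.3% and 27%. Its log2 odds ratio was −2.54 ± 0.249 (adjusted p = 2.75e-10), and EM shuffle against WT Abf1 gave −1.07 ± 0.273 (adjusted p = 0.066, and 0.000589 with the dispersion trend). The overlapping match on the other strand reads the same DNA (−1.86 ± 0.208, adjusted p = 7.91e-09). The match before YOLWTy1-1 lay at 53.1%, 62.5%, 54.5% and 53.6%, at 31.6%, 32.8%, 37.2% and 38.6% and at 46.3%, 41.4%, 36.5% and 44.8% (−1.31 ± 0.167, adjusted p = 1.49e-07). The other 3 stood beside solo repeats of Ty4 at chrX:421946-422295 (−1.31 ± 0.230), Ty3 at chrIV:992740-992815 (−1.22 ± 0.192) and Ty1 at chrXII:796899-797088 (−1.11 ± 0.223).

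Whole windows that hold a match were called in 4 of 62 cases (6.45%, beside 3.08% of all windows), 3 lower and 1 higher. Lower were the 5′ flanks of YOLWTy1-1, of the Ty4 repeat chrX:421946-422295 and of YORWTy2-2 (30.7% in WT Abf1 and 25.1% in no Abf1, −0.50 ± 0.136, adjusted p = 0.027). Higher was the 3′ flank of the solo Ty2 repeat chrI:189426-189757 (35.0% and 45.4%, 0.55 ± 0.117, adjusted p = 0.00218). The other 6 of the 10 with the largest changes had log2 odds ratios between −0.36 and 0.70 and were not called.

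Cut into pieces of 300 bp, the Ty2 and Ty3 elements with a match showed gains besides the loss. These gains lay nearer to the 5′ end than the loss in both Ty3 elements. In both Ty2 copies they lay nearer to the 3′ end, except for a gain in the 5′ repeat of YGRWTy2-2. Bodies of full elements had a median dispersion of 21.6 against 1.89 over all windows, and 1 of 49 was called, so each element was also tested in pieces. Of 931 pieces, 17 rose and 18 fell in no Abf1 (3.76%, against 4.69% of all windows of that table), limma called 14, the dispersion trend 30, and 116 had an unadjusted p under 0.05. Without WT Abf1 replicate 2 the count was 15, without no Abf1 replicate 1 it was 14 and without no Abf1 replicate 2 it was 17. For EM shuffle against WT Abf1 the quasi-binomial fit called 0 pieces (0.414% of all windows of that table, limma 2 pieces, dispersion trend 3, unadjusted p under 0.05 in 37). In YFLWTy2-1 the piece from 600 bp fell by 1.03 on the log2 odds scale (41.0% in WT Abf1, 26.6% in no Abf1 and 38.2% in EM shuffle), and those from 1200 and 1800 bp rose by 0.63 and 0.62. In YGRWTy2-2 the corresponding values were −0.53, 0.58 and 0.63, and the piece from 0 bp, its 5′ repeat, rose by 0.65. The annotation of YNLCTy2-1 leaves out its repeats, so its pieces stand elsewhere, and the 9 other measured Ty2 elements without the match had values of −0.10 to 0.27, −0.40 to 0.27 and −0.39 to 0.06 in these 3 pieces, none of them called. In YGRWTy3-1 the pieces from 1200, 1500 and 1800 bp rose by 0.45, 0.71 and 0.47 and those from 2100 and 2700 bp fell by 0.47 and 0.64. In YILWTy3-1 the piece from 1500 bp rose by 0.45 and those from 2100 and 2700 bp fell by 0.68 and 0.72. Whichever replicate was left out, the calls held for the gains from 1200 bp in both Ty2 copies and from 1500 bp in both Ty3 elements, and for the losses from 600 bp in YFLWTy2-1 and from 2100 bp in YILWTy3-1. The gain from 1800 bp held in 0 of 6 such fits in YGRWTy3-1 (0.40 to 0.55), in 2 in YGRWTy2-2 (0.57 to 0.68) and in 3 in YFLWTy2-1 (0.39 to 0.86), and the gain from 0 bp in YGRWTy2-2 held in 3 (0.50 to 0.76). The gain from 1200 bp in YGRWTy3-1 and the remaining losses held in 4 of 6.

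**Figure D5:**
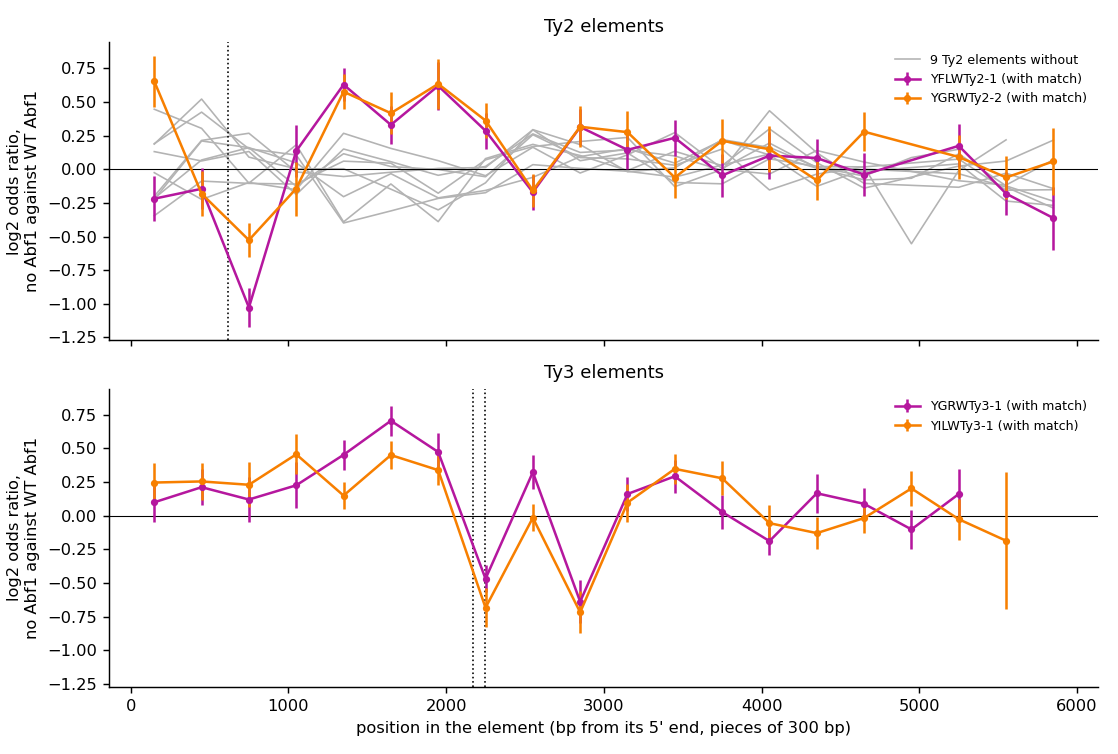
Log2 odds ratio of methylation in no Abf1 against WT Abf1 in pieces of 300 bp against the distance from the 5′ end of the element (bp), for Ty2 and Ty3 elements, with coloured lines and SE bars for copies with the internal match, grey lines for 9 Ty2 copies without it, and dotted lines at the match. The piece that holds the match is lowest in both Ty2 copies with it, at −1.03 in YFLWTy2-1, and the pieces from 1200 and 1800 bp lie at 0.58 to 0.63 there while the grey lines reach 0.27 at most in these pieces.

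Ty1 elements hold no match inside, and a few changed at their 5′ end. YHRCTy1-1 fell in the pieces from 0, 300 and 600 bp by 0.70, 1.05 and 0.61 (the second from 41.4% to 26.0%, with 23.3% in EM shuffle). YMRCTy1-3 fell in the same pieces by 0.58, 0.89 and 0.61 (the second from 50.9% to 37.5%, with 48.5% in EM shuffle). The first of these calls held in 1 of 6 fits with a replicate left out and the other 2 in 4. YJRWTy1-2 fell there as well, by 0.47, 0.56 and 0.38, at a coverage of 2.57 times the nuclear median, whose part in the result was not tested. Over 30 Ty1 elements the median was −0.13, −0.13 and −0.23 in these pieces, with 3, 3 and 5 copies called lower. It was 0.18 in the piece from 1200 bp, with 4 copies called higher. Over all windows of the table with the pieces, 3.04% were called lower and 1.65% higher. In the piece from 1800 bp the Ty1 median was 0.26 (−0.08 to 0.41), with 0 copies called. Positive medians in these 2 pieces were thus also seen in elements without a match.

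Coverage differed between copies. Full elements were covered at 1.24 times the nuclear median in WT Abf1, 1.21 in no Abf1 and 1.13 in EM shuffle, and solo repeats at 1.02, 1.03 and 1.06. The Ty2 element YCLWTy2-1 was covered at 0.0294 and had 0 of 156 CpG sites kept, and the Ty1 element YLRCTy1-1 at 0.186 with 42 of 163 kept. Above 1.5 stood YJRWTy1-2 (2.57), YERCTy1-1 (2.16), YJRWTy1-1 (2.04), YCLWTy5-1 (1.60) and YLRWTy1-3 (1.58). The 1000 bp beside YERCTy1-1 were covered at 0.946 and 0.857 and those beside YLRWTy1-3 at 0.976 and 1.04, so the excess there stopped at the ends of the element. Beside the others it ran on at one end. The left and right sides were at 0.959 and 3.71 for YJRWTy1-1, 3.04 and 0.952 for YJRWTy1-2, and 2.09 and 1.22 for YCLWTy5-1.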

How the data were processed

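ODM-seq libraries of 6 preparations (3 constructs, 2 biological replicates, aliquots of 3 h and 4 h of M.SssI) were analysed. The authors called bases and 5-methylcytosine with Dorado, mapped reads with minimap2 2.17 to sacCer3 (R64), sorted and indexed them with SAMtools 1.9 and 1.15, and summarised calls per position with modkit. R 4.2.0 is named in the submitters' processing notes. The deposited files give per position and strand the methylated fraction divided by a correction ratio (the factor of the construct, its mean genome average over that of WT Abf1), an occupancy fraction of 1 minus that value, which was not used, and the count of valid calls. Row filters of the authors are not given in the sources used here.

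Methylated calls were recovered as the deposited fraction times the factor times the count, which was whole within 0.01 for 100% of nuclear rows. Chromosome names, and all nuclear rows at a CG of the RefSeq R64 sequence, matched that reference, which also gave features, genes and sequences. Sites with at least 5 calls per strand in all 12 libraries were kept and strands added. Windows with at least 2 sites were tested with a quasi-binomial logistic model (aliquots summed, pseudocount 0.5, log2 odds ratios, R 4.3.3, dispersion shrunk across windows by limma 3.58.1 (squeezeVar), two-sided, Benjamini-Hochberg over all 36584 windows, and over 39146 in the added fit of element pieces and match flanks). Promoters ran from 250 to 51 bp before the start codon. On simulated calls for no Abf1 against WT Abf1 over 36584 windows, 90 of 100 windows changed by 1 on the log2 odds scale and 100 of 100 changed by 1.5 were called, with 23 false calls. With no window changed, the same fit still called 22, and the fit with the dispersion trend called 0. False calls at an adjusted p under 0.05 are therefore to be reckoned with in the main fit. Class levels were compared by exact permutation tests. The consensus was matched on both strands of the nuclear genome.

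Named in each comparison were up to 5 called windows per direction with the largest change and no overlap between libraries, the extreme members by level and coverage, every Ty3, Ty4 and Ty5 full element, and the 10 members whose window with a match changed most. Members, lists and tests were chosen with earlier results of these data known. Replicate numbers did not pair the samples: same-numbered preparations deviated together with correlations of −0.0281, 0.0154 and −0.00532 over 36584 windows. Alternatives were other coverage minimums, no offset, single aliquots, limma, a replicate block, pairs of constructs, at least 4 sites, flanks of 150 bp, a coverage range, chromosome XI or tiles in genes left out, each replicate left out and, added later, a dispersion trend. Figures were drawn with matplotlib 3.10.9 in Python 3.11.15.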

Additional observations from a re-analysis of the deposited data

Results flagged for a closer look

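Of 87 groups of 4 libraries scanned, 4 held a library whose gap to the nearest other library, as a share of the whole range, passed Dixon's critical value, where chance gives about 1 in 20. The 5′ flank of YOLWTy1-1 in EM shuffle was at 31.2% in replicate 2 at 3 h and at 35.4% to 36.2% in the others. The 5′ flank of YDRCTy2-1 in no Abf1 was at 40.9% in replicate 1 at 4 h and at 38.3% to 38.4% in the others. The flanks of the internal match of YGRWTy2-2 in EM shuffle were at 44.9% in replicate 2 at 4 h and at 39.4% to 39.8% in the others. Those of YILWTy3-1 in no Abf1 were at 30.9% in replicate 1 at 4 h and at 36.9% to 37.6% in the others.

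Solo repeats of Ty5 fell by 0.268 percentage points on average from 3 h to 4 h in both WT Abf1 preparations and rose in both preparations of another construct, by 2.06 points on average. Among 36 classes scanned, it was the only one in which both preparations of one construct moved against both of another. It rests on 6 repeats, and the difference was not tested.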

How the results depend on the processing

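Counts of called windows moved with the processing. For member windows in no Abf1 against WT Abf1 (19) the count was 8 at a coverage minimum of 20, 42 without the offset (36 higher and 6 lower, against 8 and 11), 12 with 3 h and 7 with 4 h aliquots only, and 9 with limma. In EM shuffle against WT Abf1 (6) it was 0, 108 (1 higher, 107 lower), 2 with 4 h aliquots and 2 with limma. In EM shuffle against no Abf1 (29) it was 4, 376 (7 higher, 369 lower), 7, 12 and 19, and 47 with only these 2 constructs and 17 with flanks of 150 bp. Pieces in no Abf1 against WT Abf1 (35) numbered 7 at the minimum of 20, 23 and 8 with single aliquots and 14 with limma, and pieces in EM shuffle against WT Abf1 (0) numbered 94 without the offset, 2 with limma, 1 in the coverage range of 0.5 to 1.5 and 3 with the dispersion trend. Matches at members in no Abf1 against WT Abf1 (10) fell to 4 at the minimum of 20. In EM shuffle against WT Abf1 (0) they were 7 without the offset, 3 with limma, 1 in the coverage range and 3 with the trend, and against no Abf1 (11) they were 2, 28, 4 with 3 h and 6 with 4 h aliquots. Matches elsewhere in no Abf1 against WT Abf1 (528) numbered 113 at the minimum of 20, 348 with 4 h aliquots and 327 with at least 4 CpG sites. Host promoters in no Abf1 against WT Abf1 (2) numbered 1 at the minimum of 20, 0 and 1 with single aliquots and 0 with limma. In EM shuffle against WT Abf1 (0) there was 1 without the offset. Against no Abf1 (1) there were 2 at a minimum of 10, 0 at 20, 4 without the offset, 0 with 3 h aliquots, 3 each with the pair only, with at least 4 sites, in the coverage range and without tiles in genes, and 2 with the trend.

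Levels divided by the authors' factor gave EM shuffle minus WT Abf1 of −0.592 points in full elements, −0.367 in their repeats, −0.611 in their internal part and −0.233 in solo repeats, and with the opposite sign 2.48 and 1.51 in flanks of full elements and solo repeats. No Abf1 minus WT Abf1 in repeats of full elements (0.0973) reversed to −0.167 with pooled calls, −0.434 at the minimum of 20 and −1.17 divided by the factor, and in both kinds of flank to −0.404 and −0.406 divided by the factor. Repeats of full elements minus the rest fell to 0.630 with pooled calls. Coverage over the chromosome median was 1.25 and 1.14 in full elements of WT Abf1 and EM shuffle, 0.974 and 0.940 in their flanks in no Abf1 and EM shuffle, and 1.01 in solo repeat flanks of WT Abf1. Among single matches, YHLWTy4-1 reversed to 0.0305 without the offset and 0.17 with 4 h aliquots, and YJLWTy4-1 to 0.10 with 3 h aliquots. The cause of these moves was not tested.

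Leaving out 1 replicate at a time gave 11 to 19 member windows in no Abf1 against WT Abf1, 2 to 8 in EM shuffle against WT Abf1 and 8 to 47 in EM shuffle against no Abf1. Pieces ran from 14 to 31 in no Abf1 and from 0 to 1 in EM shuffle against WT Abf1, matches at members from 7 to 12 in EM shuffle against no Abf1, and host promoters from 0 to 2 in no Abf1 against WT Abf1 and from 0 to 3 in EM shuffle against no Abf1. Class differences of no Abf1 minus WT Abf1 ran from −0.00568 to 2.91 points in full elements, −1.37 to 1.57 in their repeats, −0.334 to 2.71 in solo repeats, −0.245 to 2.53 in flanks of full elements and −0.569 to 2.76 in flanks of solo repeats, below 0 without WT Abf1 replicate 2 in each of them and also without no Abf1 replicate 2 in the repeats of full elements.

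The replicate number as a block, which does not pair these samples, gave 17 called member windows in no Abf1 against WT Abf1. Limits: 2 preparations per construct set the smallest exact p, batch and construct cannot be told apart for EM shuffle, sites under 5 calls were dropped, and copies without unique sequence depend on where reads were placed.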

Other observations

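Promoters of 27 host genes that act on Ty elements were tested in the same fit: activators of Ty transcription such as STE12, TEC1 and GCR1 and subunits of SAGA and SWI/SNF, repressors and chromatin factors such as SPT10 and SPT21, and genes of later steps (DBR1, XRN1 and RPC40). Between no Abf1 and WT Abf1, 2 of 27 were called, against 7.59% of all promoters, and the median log2 odds ratio was 0.00247 beside −0.00311 over all promoters. XRN1, the cytoplasmic RNA exonuclease, was higher (44.5% in WT Abf1, 54.6% in no Abf1 and 41.4% in EM shuffle, 0.50 ± 0.114, adjusted p = 0.00474 in the quasi-binomial fit). SPT4, a transcription elongation factor, was lower (49.1%, 40.4% and 45.0%, −0.59 ± 0.155, adjusted p = 0.0188). Limma called neither. Between EM shuffle and WT Abf1 the quasi-binomial fit, limma and the dispersion trend each called 0 of 27, with an unadjusted p under 0.05 in 2.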
